A study of Mus musculus with 4 samples.

Results

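The CC chemokine genes described here are Ccl2, Ccl3, Ccl4, Ccl5, Ccl6, Ccl7, Ccl9, Ccl17, Ccl22 and Ccl24, and the data are the ATAC-seq peaks assigned to them in mouse bone marrow-derived macrophages (BMDMs). ATAC-seq uses the Tn5 transposase to insert adapters into open DNA, so that a peak marks accessible chromatin. Peaks sharing 1 bp or more, within or between the 4 libraries, were joined into regions, and a region belonged to a gene when its highest peak carried that gene's name as the nearest transcription start site (TSS). By this rule 38 of 60710 regions belonged to the 10 genes, and 9 of the 10 genes had at least 1 region. The cells came from wild-type mice aged 8 to 12 weeks on the C57BL/6 background. They were grown for 6 days in L929 supernatant, which supplies macrophage colony-stimulating factor, and were either left untreated (control, n = 2 libraries) or given IL-4 at 20 ng/ml for 1 h (IL-4, n = 2 libraries). The methods describe the libraries as biological replicates. The comparison asks how 1 h of IL-4 affects accessibility in wild-type cells cultured outside the animal, so recruitment of cells by these chemokines was not measured.

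CC chemokines are small secreted proteins with adjacent cysteines near their start. They bind G protein-coupled receptors and steer leukocytes along concentration gradients, and macrophages are among their main sources. Ccl17 and Ccl22 are ligands of CCR4, and Ccl24 (eotaxin-2) is a ligand of CCR3. These are typical products of alternatively activated macrophages. Ccl2 and Ccl7 attract monocytes through CCR2, whereas Ccl3, Ccl4 and Ccl5 are inflammatory chemokines that attract monocytes and T cells, Ccl3 and Ccl5 in part through CCR1. Ccl6 and Ccl9 are rodent chemokines that act through CCR1. IL-4 signals through the transcription factor STAT6.

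Of the 38 CC chemokine regions, the 17 with a peak in all 4 libraries could be tested. At 1 h, none of these passed the test for a change in accessibility as read from peak scores, in either direction. Calls were rare among all 25442 regions tested as well, at 0.0157% higher and 0.00786% lower. Among the 17 regions, the largest estimates were a lower value in an intron of Ccl4 (log2 change −0.94) and a higher value at the promoter of Ccl7 (0.86). A single region, just downstream of Ccl7, had peaks in both IL-4 libraries and no control library, and a single region, upstream of Ccl6, had the opposite pattern. Over all 60710 regions, 2.53% had the first pattern and 4.33% the second. Ccl22 had no assigned peak in any library.

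Peak height denotes the deposited peak score, taken here as −log10 of the MACS2 q-value. It grades how strongly a peak stands out within its library and is not a read count. At regions where every library had a peak, the median height was 12.52 (control 1), 11.01 (control 2), 11.14 (IL-4 1) and 8.86 (IL-4 2). The second IL-4 library therefore stood lowest, and heights of a group are given with replicate 1 first. Promoter peaks (within 1000 bp of the TSS) were found at 6 of the 7 macrophage markers in every library, Csf1r being without one. The 4 T cell and 4 B cell markers had none in any library, and 1 of 4 neutrophil markers (S100a8) had one in every library. Dendritic cell markers had promoter peaks at 2 of 3 genes in every library but the second IL-4 library, which had 0. Of 4 stromal or epithelial markers, 1 had a promoter peak, in the first IL-4 library alone (5.34). Their part in the results was not tested.

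The sequences below show the reference DNA (RefSeq, GRCm38.p6, plus strand unless stated, 5′ to 3′) behind the regions on which the comparison turns. Capitals mark matches to the short motifs searched, on both strands. These were the STAT6 spacing (TTC, any 4 bases, GAA), the spacing of other STAT proteins (TTC, any 3 bases, GAA), AP-1 (TGACTCA or TGAGTCA), PU.1 (GAGGAAG) and NF-kB. The first 4 windows of 200 bp are centred on the region with the lowest estimated change, the upstream Ccl2 region with the highest one, the only Ccl17 region found in all libraries and the promoter region of Ccl3. The last pair are the IL-4-only and the control-only region, in which none of the motifs was found.
Ccl4 intron, 1157 bp downstream of the TSS, chr11:83663641-83663840: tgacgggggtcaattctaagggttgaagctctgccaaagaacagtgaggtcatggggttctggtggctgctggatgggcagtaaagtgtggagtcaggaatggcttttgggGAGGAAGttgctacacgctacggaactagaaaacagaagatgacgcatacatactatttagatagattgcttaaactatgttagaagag
Ccl2, 12782 bp upstream, chr11:82022722-82022921: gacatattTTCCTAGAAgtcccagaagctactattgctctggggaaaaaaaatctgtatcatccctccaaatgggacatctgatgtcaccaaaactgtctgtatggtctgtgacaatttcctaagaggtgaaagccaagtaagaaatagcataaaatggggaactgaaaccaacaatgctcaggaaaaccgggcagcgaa
Ccl17, 7947 bp upstream, chr8:94802399-94802598: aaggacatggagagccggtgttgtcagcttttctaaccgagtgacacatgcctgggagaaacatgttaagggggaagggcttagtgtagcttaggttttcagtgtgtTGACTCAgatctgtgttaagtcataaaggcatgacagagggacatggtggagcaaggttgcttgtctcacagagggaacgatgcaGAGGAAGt
Ccl3, 254 bp upstream, chr11:83649558-83649757: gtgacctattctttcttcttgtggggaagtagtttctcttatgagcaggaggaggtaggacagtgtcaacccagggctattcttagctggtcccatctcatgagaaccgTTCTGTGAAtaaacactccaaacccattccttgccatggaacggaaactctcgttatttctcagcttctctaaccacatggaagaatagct
Ccl7 IL-4-only, 1959 bp downstream of the TSS, chr11:82047571-82047770: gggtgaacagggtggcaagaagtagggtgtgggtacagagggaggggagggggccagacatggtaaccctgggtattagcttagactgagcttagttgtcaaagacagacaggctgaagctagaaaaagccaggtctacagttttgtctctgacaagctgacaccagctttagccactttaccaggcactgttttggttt
Ccl6 control-only, 7725 bp upstream, chr11:83600712-83600911: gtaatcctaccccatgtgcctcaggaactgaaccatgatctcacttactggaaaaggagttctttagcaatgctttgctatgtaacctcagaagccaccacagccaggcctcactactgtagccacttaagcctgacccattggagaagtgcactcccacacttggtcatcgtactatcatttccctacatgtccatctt

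Ccl17 and Ccl22, both on chromosome 8, are shown by their promoters as well, since neither had a peak there. The promoter table held 5 of the 10 genes (Ccl3, Ccl6, Ccl9, Ccl17 and Ccl22). In the 250 bases before the start, the Ccl17 promoter held 1 match to the STAT6 spacing, 154 bases before the start, and 1 match to the other STAT spacing, 99 bases before it. No motif was found in these bases of Ccl22. The Ccl9 promoter held an NF-kB match 35 bases before the start. Over 32851 promoters of the same length, 5.85% held the STAT6 spacing, 7.02% the other STAT spacing and 7.25% the NF-kB motif. A match is a description of the letters and no evidence of binding.
Ccl17 promoter, chr8.0:94810203-94810452: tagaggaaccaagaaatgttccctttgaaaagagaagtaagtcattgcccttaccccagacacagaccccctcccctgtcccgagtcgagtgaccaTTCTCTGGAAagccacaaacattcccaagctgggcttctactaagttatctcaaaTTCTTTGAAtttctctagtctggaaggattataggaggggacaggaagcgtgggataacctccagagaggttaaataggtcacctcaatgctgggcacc
Ccl22 promoter, chr8.0:94745434-94745683: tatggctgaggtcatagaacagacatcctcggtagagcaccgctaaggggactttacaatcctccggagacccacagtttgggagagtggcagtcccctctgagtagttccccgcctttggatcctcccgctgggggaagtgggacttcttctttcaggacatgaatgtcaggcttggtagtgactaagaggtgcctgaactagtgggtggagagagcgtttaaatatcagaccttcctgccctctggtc

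Of the 38 regions, 33 lay on chromosome 11, where most genes of the family are clustered, 3 on chromosome 5 (Ccl24) and 2 on chromosome 8 (Ccl17). A peak was present in all 4 libraries at 17 regions (44.7%, against 41.9% of all 60710 regions), in 3 libraries at 6, in 2 at 3 and in 1 at 12. The 12 regions of a single library had heights between 2.12 and 5.97, and 4, 4, 1 and 3 of them belonged to the respective libraries. There were 8 promoter regions. The control libraries held 29 and 24 peaks in CC chemokine regions and the IL-4 libraries 25 and 27, or 26.5 ± 3.54 against 26.0 ± 1.41 (SD, n = 2). The difference of −0.5 was smaller than the spread between replicates (two-sided exact permutation test, p = 1.0, with 0.3333 as the smallest p that 2 against 2 libraries allow). These peaks covered 7335, 5991, 6132 and 5158 bp. The covered length differed by −1018 bp between the group means (exact permutation test, p = 0.6667).

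**Figure D1:**
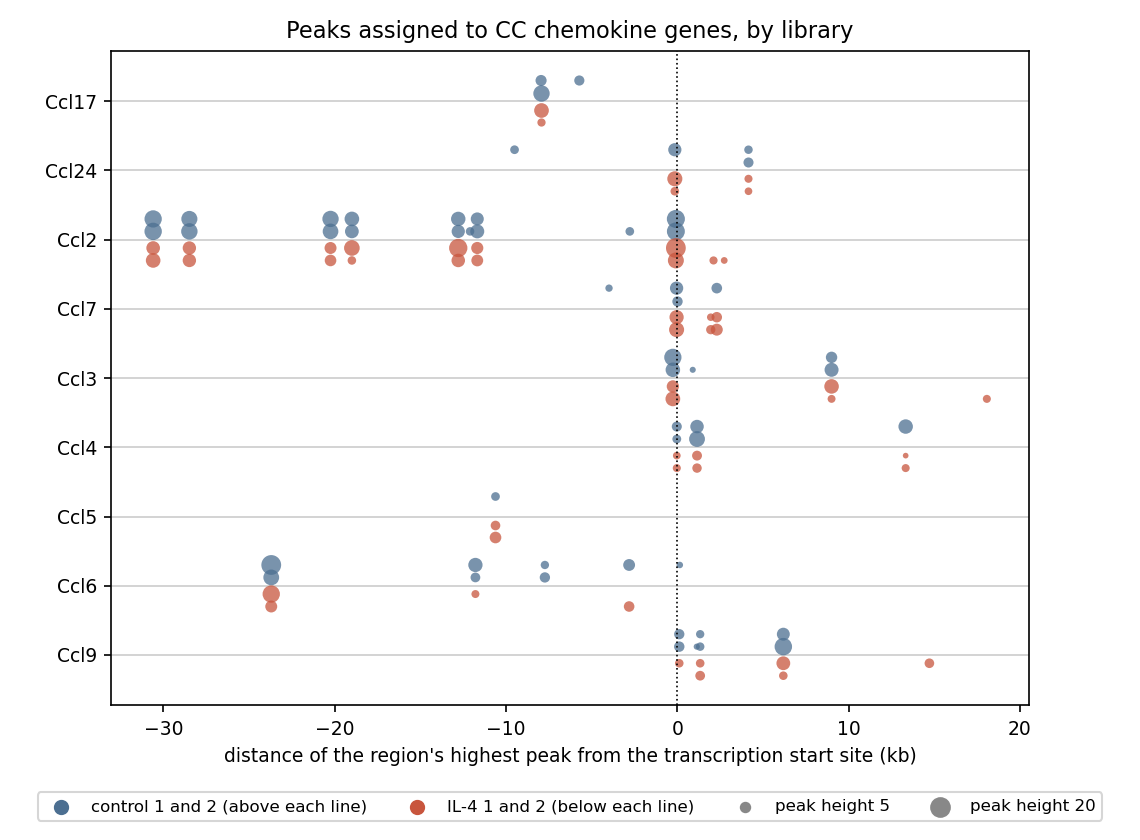
Peaks of the 9 CC chemokine genes with a region, by distance of the region's highest peak from the TSS (x axis, kb, negative upstream) and by gene (rows). Each circle is 1 peak region in 1 library, its area grows with peak height, blue circles above a line are control libraries and red circles below it are IL-4 libraries. Ccl2 had the most regions (11), while Ccl5 had 1 and Ccl22, not drawn, had none.

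For the ligands of CCR4 and CCR3, accessible regions were few. Ccl22 (chr8:94745684-94751388) lay inside a stretch of 60.5 kb without any peak, chr8:94711648-94772132. The nearest regions were 34.0 kb before the gene, assigned to Pllp, and 20.7 kb after it, assigned to Cx3cl1. Absence from a peak list says that no peak passed the caller's threshold, and it does not show closed chromatin. Ccl17 had no promoter region. Its region 7947 bp upstream (intergenic, chr8:94802374-94802625) had heights of 7.12 and 15.44 in the control and 12.43 and 3.92 in the IL-4 libraries. Both groups held a high and a low library, and their ranges overlapped. The estimated log2 change was −0.34 (SE 0.51, 95% interval −1.35 to 0.68). A further region, 5714 bp upstream, was found in the first control library alone (5.97).

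At Ccl24, the promoter region (139 bp upstream, chr5:135573103-135573320) had heights of 10.07 in the first control library, 13.08 and 4.30 in the IL-4 libraries, and no peak in the second control library. It was therefore outside the fit. This window held the other STAT spacing and a PU.1 match, which overlap each other. The region 4161 bp downstream of the Ccl24 TSS (intergenic, chr5:135568595-135568974) was low everywhere, at 4.15 and 5.84 in the control and 3.76 and 3.38 in the IL-4 libraries. Its mean height lay at percentile 1.4 of the regions tested. Both IL-4 values were below both control values as deposited, but the groups overlapped after normalisation (log2 change −0.28, SE 0.55).

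The monocyte attractants Ccl2 and Ccl7 are neighbours on chromosome 11 and held 15 of the 38 regions, 8 of them with a peak in all 4 libraries. The Ccl2 promoter region (78 bp upstream, chr11:82035252-82035747) was the highest of all CC chemokine regions by mean height (18.6, percentile 82.6 of the regions tested). Its heights were 18.79 and 18.54 in the control and 22.51 and 14.69 in the IL-4 libraries. The control values lay between the IL-4 values, and the log2 change was 0.16 (SE 0.30, 95% interval −0.45 to 0.77). The window held 1 match to the other STAT spacing.

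Upstream of Ccl2, 6 intergenic regions between 30593 and 11672 bp from the TSS had a peak in every library, 5 with a negative and 1 with a positive estimate. At 20238 bp upstream (chr11:82015183-82015464) the heights were 15.36 and 14.13 in the control and 8.27 and 7.77 in the IL-4 libraries. Both IL-4 libraries were lower, also after normalisation (log2 change −0.64, SE 0.42, limma adjusted p = 0.73). At 30593 bp upstream the control heights were 17.23 and 17.41 and the IL-4 heights 10.71 and 12.29, a log2 change of −0.39 (SE 0.36). The region 28479 bp upstream had 14.89 and 15.52 in the control and 10.27 and 10.30 in the IL-4 libraries (log2 change −0.34, SE 0.39). In these regions too the groups did not overlap. By contrast, the region 12782 bp upstream (chr11:82022625-82023019), which held a match to the other STAT spacing, had 12.00 and 10.11 in the control and 19.29 and 10.51 in the IL-4 libraries. Here the first IL-4 library stood far above the rest, and after normalisation both IL-4 libraries were above both control libraries (log2 change 0.60, SE 0.39). The remaining regions, 18992 and 11672 bp upstream, had log2 changes of −0.35 and −0.09, and the first of them ranged from 14.07 to 4.21 between the IL-4 libraries alone.

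Ccl7 had the largest positive estimate, at its promoter region (36 bp upstream, chr11:82045408-82045869). Its heights were 10.19 and 6.18 in the control and 11.66 and 13.02 in the IL-4 libraries. Both IL-4 libraries were higher, the second of them although its median height was the lowest. The log2 change was 0.86 (SE 0.45, 95% interval −0.05 to 1.76), with a limma p of 0.06325 before and 0.63 after adjustment over all 25442 regions. The estimate lay at percentile 95.3 of all regions tested. The IL-4-only region (1959 bp downstream of the TSS, past the end of the gene, chr11:82047593-82047750) had heights of 3.30 and 4.97. It was separated by 57 bp from a broader region, 2310 bp downstream of the TSS, with heights of 6.54 in the first control library and 6.35 and 8.28 in the IL-4 libraries. Merging of peaks within 500 bp joined these regions, and no IL-4-only region was then left.

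Ccl3 and Ccl4 encode the macrophage inflammatory proteins MIP-1α and MIP-1β, and their 4 tested regions had estimates between −0.94 and −0.24. Leaving out 1 library turned 3 of the 4 positive, to 0.49 or 0.16 at Ccl3 9011 bp downstream, 0.17 at the Ccl3 promoter and 0.01 at the Ccl4 promoter. The intron 2 region of Ccl4 (chr11:83663652-83663831) had heights of 10.48 and 14.42 in the control and 5.64 and 5.11 in the IL-4 libraries. Ranked within each library, it lay at percentiles 62.0 and 79.2 in the control and 33.3 and 38.5 in the IL-4 libraries. The ranks come from the same heights, and in both forms both IL-4 libraries lay below both control libraries. After normalisation the order held, as it did at 18.6% of all regions tested. The log2 change at this intron region was −0.94 (SE 0.49, 95% interval −1.92 to 0.05), with a limma p of 0.0628 before and 0.63 after adjustment. At the Ccl4 promoter (24 bp upstream) all heights were low, at 5.81 and 4.50 in the control and 3.43 and 3.75 in the IL-4 libraries, and the groups overlapped after normalisation (log2 change −0.27, SE 0.55).

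The Ccl3 promoter region (254 bp upstream, chr11:83649378-83649938) had heights of 17.17 and 12.15 in the control and 8.66 and 12.53 in the IL-4 libraries, so the groups overlapped (log2 change −0.25, SE 0.40). A region 9011 bp downstream of the Ccl3 TSS had 7.48 and 11.29 against 12.19 and 3.64, and again the IL-4 libraries lay on either side of the control libraries (log2 change −0.24, SE 0.52). Ccl5 (RANTES) had 1 region, 10646 bp upstream, with heights of 4.38 in the first control library and 5.34 and 7.83 in the IL-4 libraries, and none in the second control library. No peak lay in the Ccl5 gene or within 5 kb of it.

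The STAT6 spacing was found in the windows of 2 of the 38 regions, both in this gene group and neither with a peak in all 4 libraries. It lay near the peak 18076 bp downstream of the Ccl3 TSS, which was called in the second IL-4 library alone (3.73), and at the region 13337 bp downstream of the Ccl4 TSS. The letters were TTCTTCTGAA at both. The latter region had heights of 12.05 in the first control library and 1.86 and 3.73 in the IL-4 libraries. It had no peak in the second control library.

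For the rodent chemokines Ccl6 and Ccl9, 3 of 10 regions had a peak in all libraries. The second highest CC chemokine region by mean height (15.6) was assigned to Ccl6, although it lay 23699 bp upstream, in an intron of a noncoding transcript (chr11:83616612-83616931). Its heights of 22.57 and 14.34 in the control and 17.30 and 8.22 in the IL-4 libraries overlapped (log2 change −0.37, SE 0.36). The control-only region of Ccl6 (chr11:83600728-83600897) lay in an intron of the same transcript, with heights of 4.01 and 6.14. In the gene itself, a promoter region 152 bp downstream of the TSS was found in the first control library alone (2.44).

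Ccl9 had the second lowest estimate, at the region 6195 bp downstream of its TSS near the end of the gene (chr11:83572332-83572579). The heights were 9.63 and 17.56 in the control and 10.96 and 4.24 in the IL-4 libraries. The groups overlapped, and the log2 change was −0.69 (SE 0.48, 95% interval −1.65 to 0.27). It was −0.14 without the second control library and −0.17 without the second IL-4 library. Its intron 1 region, 1341 bp downstream of the TSS, was low but higher in both IL-4 libraries, with 3.99 and 4.17 in the control and 4.28 and 5.47 after IL-4 (log2 change 0.52, SE 0.55). At the Ccl9 promoter (120 bp downstream of the TSS) a peak was found in 3 libraries, with heights of 6.11 and 6.27 in the control and 4.23 in the first IL-4 library.

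**Figure D2:**
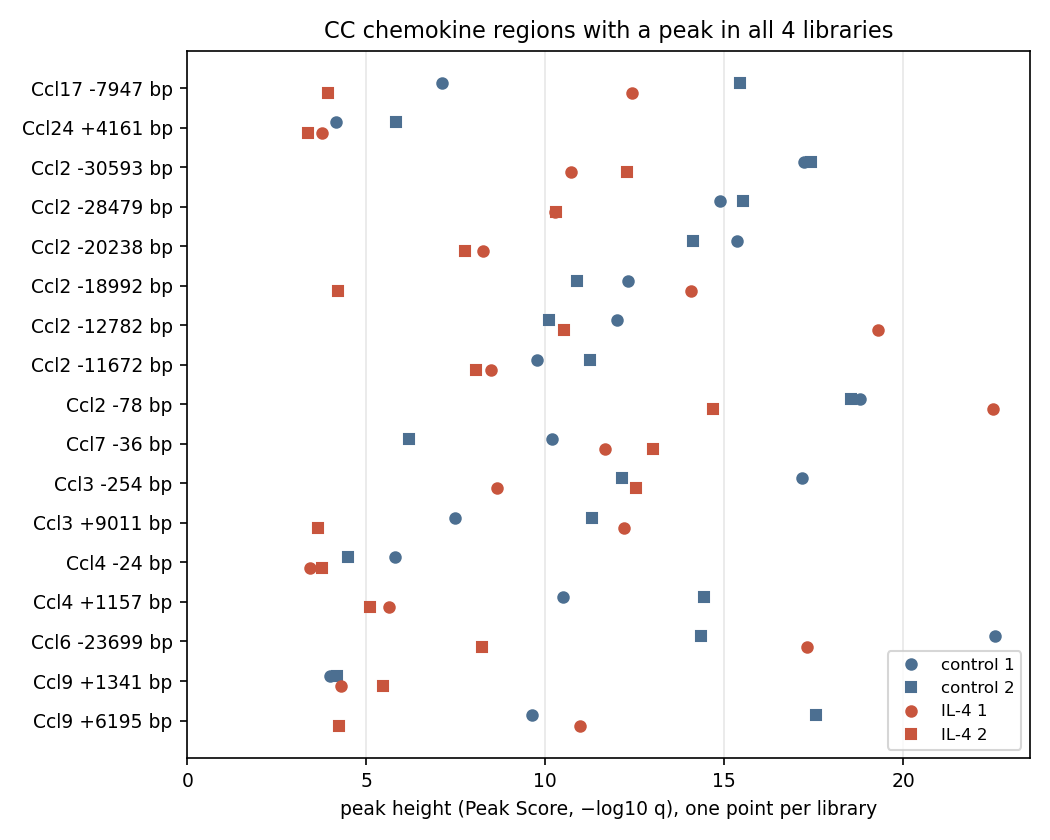
Peak height (x axis, −log10 q) of the 17 CC chemokine regions with a peak in all 4 libraries, named by gene and distance from the TSS. Each point is 1 library, blue for control and red for IL-4, with circles for replicate 1 and squares for replicate 2. Heights are as deposited, before normalisation. Both IL-4 points lie left of both control points at 7 regions, among them Ccl4 1157 bp downstream and Ccl2 20238 bp upstream. They lie right of both control points at 2 regions, among them the Ccl7 promoter. The shares over all regions were not computed for heights as deposited.

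Of the CC chemokine regions, 17 could be tested, and the fit (limma on log2 quantile-normalised heights, over 25442 regions, Benjamini-Hochberg adjustment) called 0 higher and 0 lower. Among all regions it called 0.0157% higher and 0.00786% lower, so calls were rare among all regions as well. At an unadjusted p under 0.05, again 0 of 17 were higher and 0 lower, against 4.12% and 4.15% of all regions. No other tool was run. The lowest limma adjusted p was 0.63. With regard to overlap between the groups, 3 of 17 regions (17.6%) had both normalised IL-4 heights above both control heights, against 19.2% of all regions, and 4 (23.5%) had both below, against 18.6%. These shares were near the background.

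The estimates leaned to lower values, with 13 of 17 regions lower and 4 higher, against 50.1% lower among all regions. The median log2 change was −0.28, against −0.001 over all regions, which had an SD of 0.50. Regions of neighbouring genes share a locus and libraries and are not independent. The lean moved with single libraries. Without the second control library 9 of 17 regions were lower (median −0.14), and without the first or the second IL-4 library 10 were lower (medians −0.17 and −0.17). Without the first control library 13 of 17 were still lower (median −0.36). By role, the median was −0.31 over the 2 regions of the CCR4 and CCR3 ligands, −0.21 over 8 regions of Ccl2 and Ccl7, −0.26 over 4 of Ccl3 and Ccl4, and −0.37 over 3 of Ccl6 and Ccl9. All 17 intervals included 0. They were wide, and at 16 of 17 regions, the Ccl2 promoter being the exception, the interval also included a 2-fold change in 1 direction.

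**Figure D3:**
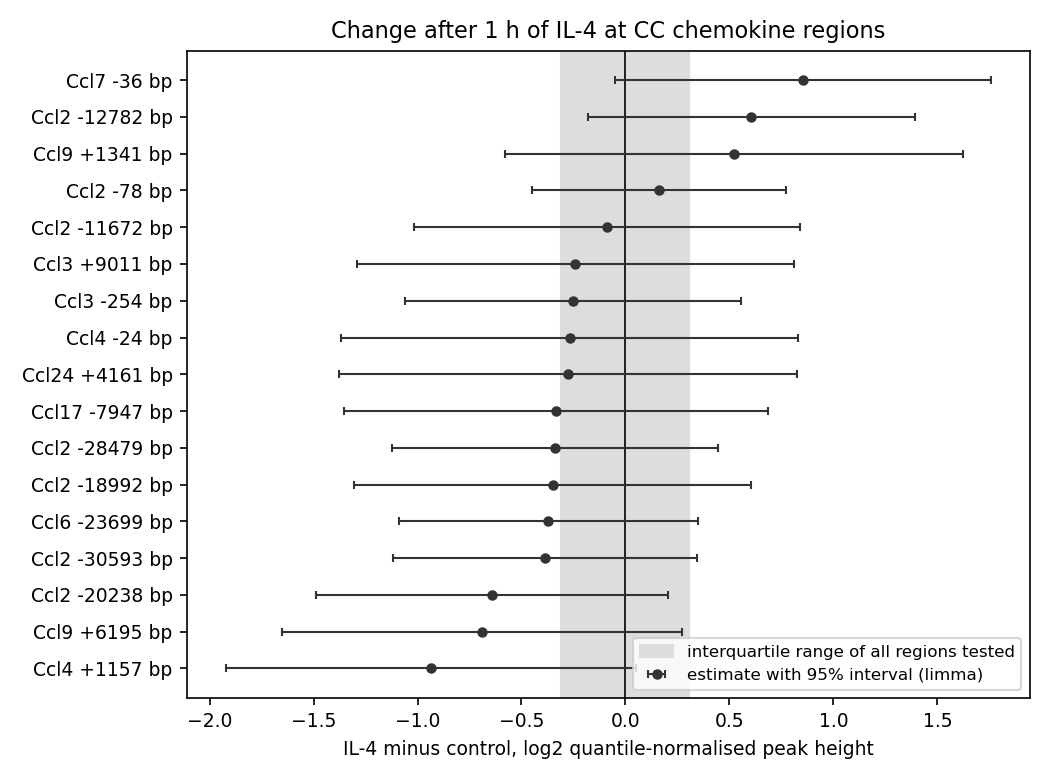
Estimated change after IL-4 (x axis, IL-4 minus control in log2 quantile-normalised peak height) at the 17 CC chemokine regions, with 95% intervals from limma (n = 2 libraries per group). The grey band spans the interquartile range of all 25442 regions, −0.31 to 0.31, and every interval crosses 0.

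**Figure D4:**
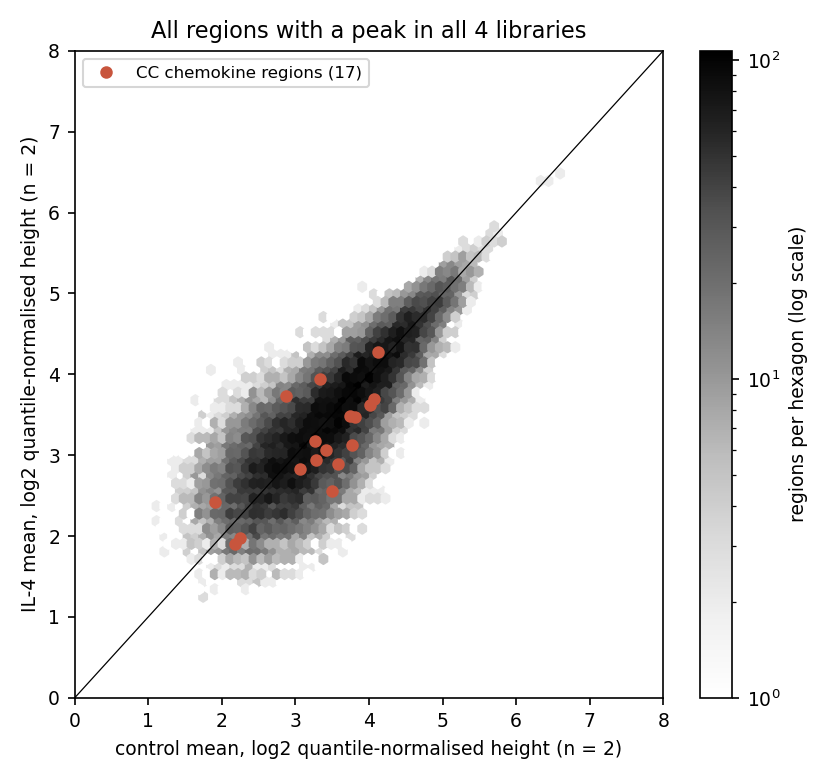
Mean log2 quantile-normalised height in the control (x axis) and IL-4 libraries (y axis) for all 25442 regions with a peak in all 4 libraries, as hexagons shaded by the number of regions on a log scale. The 17 CC chemokine regions (red) lie within the cloud of all regions, 13 of them below the line of equal height.

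Regions with peaks in both libraries of only 1 group made up 1 of 38 CC chemokine regions for IL-4 (Ccl7), against 2.53% of all regions, and 1 of 38 for the control (Ccl6), against 4.33%. Both shares were near or under the background. With 1 library left out, the rule rests on 1 library of that group and is easier to meet. The IL-4-only count was then 4, 5 and 2 without the first control, the first IL-4 and the second IL-4 library. It was 1 without the second control library. The control-only count was then 5, 5 and 3 without the first control, the second control and the first IL-4 library. It was 1 without the second IL-4 library. The shares over all regions were not computed for these settings, so these counts have no background.

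In the 200 bp windows, the PU.1 motif was found for 15 of 38 CC chemokine regions (39.5%), against 21.1% of all 60701 windows. The windows reached past the shorter regions, and some matches lay outside the region itself. PU.1 is among the lineage-determining factors of macrophages. The other STAT spacing was found at 5 (13.2%, against 5.82%), AP-1 at 7 (18.4%, against 16.9%) and the STAT6 spacing at 2 (5.26%, against 6.35%). NF-kB was found at 0, against 5.1%. The 7 PU.1 matches among the 17 regions in all libraries (41.2%, against 21.8%) were at the Ccl4 intron region, the Ccl2 regions 30593 and 28479 bp upstream, the Ccl9 regions 6195 and 1341 bp downstream, Ccl6 23699 bp upstream and Ccl17 7947 bp upstream. Of these 7, the Ccl9 region 1341 bp downstream had a positive estimate and the others negative ones. Among all 17 regions, 13 had negative estimates. These shares are descriptions of few regions, without a test.

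Among the rest of the family, the 13 other CC ligands had 34 regions, of which 8 were tested, 9 CC receptors had 29, of which 10 were tested, and the 5 atypical receptors had 8, of which 6 were tested. Limma called 0 in each list. At an unadjusted p under 0.05, 1 region of the other ligands was higher and 1 of the receptors lower. The first was assigned to Ccl1, a ligand of CCR8, 7958 bp downstream of its TSS, with heights of 5.97 and 13.17 in the control and 20.91 and 16.23 in the IL-4 libraries (log2 change 1.28, SE 0.41, limma adjusted p = 0.32). The other was assigned to Ccr1, a receptor of Ccl3 and Ccl5, 43893 bp downstream of its TSS, with 16.20 and 7.01 against 5.33 and 3.15 (log2 change −1.18, SE 0.53, limma adjusted p = 0.55). Both were named after their values were seen. The other ligands had 3 IL-4-only (8.82% of 34, against 2.53% of all regions) and 1 control-only region (2.94%, against 4.33%). The receptors had 0 IL-4-only regions and 1 control-only region (3.45%). Of the IL-4-only regions, 1 lay 1440 bp upstream of Ccl12, a CCR2 ligand, with heights of 6.04 and 4.28. The other 2 were both assigned to Ccl21b and lay in introns of other transcripts. Their heights were 4.11 and 6.43 at the first, and 1.86 and 1.35 at the second. The heights of the second were under a score of 2, near the lowest scores of the libraries.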

How the data were processed

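ATAC-seq of 4 BMDM libraries was analysed. Per the submitters' processing notes, the tools were BWA 0.7.10, SAMtools 0.1.19, MACS2 2.0.10 and HOMER 4.2, with the mm10 genome. The authors called peaks in each library separately, filtered blacklisted regions and annotated the nearest TSS. The deposited peak score was read as −log10 of the MACS2 q-value, since its lowest values were 1.3 to 1.32, although the methods name a q of 0.01, which is a score of 2. Handling of duplicates and the Tn5 shift is not given in the sources used here. The score grows with sequencing depth, which is unknown, so that no counting intervals were possible.

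Peaks of chromosomes 1 to 19, X and Y that shared 1 bp or more were joined. A region took each library's highest score. Of 105 peaks in CC chemokine regions, 97 had the same TSS distance within 2 bp in the RefSeq annotation of GRCm38.p6. For regions found in every library, log2 heights were quantile-normalised and fitted with limma 3.58.1 in R 4.3.3 (eBayes with a trend, threshold 0.05). The fit was tested on simulated data. Counts per library were compared by exact permutation (scipy 1.17.1). Motifs were searched with exact letters in windows of 200 bp. The members and gene lists were chosen with earlier results of these data known. Named by rule were, per gene, the promoter region, the region with the largest change and each group-only region, together with the 5 highest regions and any with an unadjusted p under 0.05. Other regions are given for completeness. Alternatives were median scaling, no variance trend, a replicate block, a score of at least 2, scores above the pooled median, merging within 500 bp, a limit of 50 kb from the TSS and leaving out each library. An item of the receptor list is not reported here.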

Additional observations from a re-analysis of the deposited data

How the results depend on the processing

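Limma called 0 CC chemokine regions higher and 0 lower under each alternative that kept all 4 libraries. These were median scaling, no variance trend, a score of at least 2, merging within 500 bp, the 50 kb limit and the replicate block. Among all regions, these settings called 0 to 11 higher and 0 to 3 lower, so calls were rare there too. The 50 kb limit left out no CC chemokine region, so it repeated the main fit. Without the variance trend, 1 of 17 regions was higher and 1 lower at an unadjusted p under 0.05, against 4.15% and 3.86% of all regions, and without the first control library 2 were lower, against 2.84%. The median log2 change stayed negative, between −0.36 and −0.14 when 1 library was left out.

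With the replicate block the median was −0.28, since in this balanced design the block leaves the estimates as they are. The lowest limma adjusted p of the CC chemokine regions was 0.611, and none was called. Over all regions, the calls went from 4 to 11 higher and from 2 to 3 lower. The residuals of same-numbered libraries had a correlation of 0.00677 over 25442 regions. Whether they share an animal or a day is not given in the labels, so the numbers were not taken as pairs.

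The IL-4-only count of 1 became 0 with peaks above the pooled median score and 0 with peaks merged within 500 bp, which fewer peaks and the joining of neighbouring regions bring about, and ranged from 1 to 5 when 1 library was left out. The control-only count ranged from 1 to 5. With 1 library left out the rule is easier to meet, and the shares over all regions were not computed. The difference in peaks per library ranged from −3 to 2, and was positive without the first control library (2) or the first IL-4 library (0.5). Of the 17 regions, 10 kept their direction throughout. The sign turned at the others, given here as their range with 1 library left out. It ran from −1.05 to 0.35 at Ccl2 18992 bp upstream (positive without IL-4 replicate 2), and from −0.29 to 0.11 at Ccl2 11672 bp upstream (positive without control replicate 2, and 0.05 without IL-4 replicate 1). It ran from −0.98 to 0.49 at Ccl3 9011 bp downstream (positive without IL-4 replicate 2, and 0.16 without control replicate 2), and from −0.99 to 0.32 at Ccl17 7947 bp upstream (positive without either second replicate). At Ccl24 4161 bp downstream it ran from −0.64 to 0.083 (positive without control replicate 2). Without IL-4 replicate 1, Ccl3 254 bp upstream (−0.68 to 0.17) and Ccl4 24 bp upstream (−0.55 to 0.01) turned positive. Merging within 500 bp gave 0.53 for Ccl2 11672 bp upstream, since it was then joined to the region 12782 bp upstream. The cause of the other turns was not tested. A lone library in a group was assumed to vary like the other group. Depth is unknown, and peaks near the threshold of the caller limit the counts of group-only regions.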
